A study of Drosophila melanogaster with 12 samples.

Results

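The ecdysone receptor and the transcription factors that carry its response were followed across 12 microarrays of Drosophila melanogaster eye imaginal discs. The genes were chosen by name, and of them EcR and usp encode the receptor. The early genes were br, Eip74EF and Eip75B, and the early-late genes Hr3, Hr4 and Hr39. The response gene Eip78C and the prepupal factor ftz-f1 completed the set. Of these 10 genes, 8 had probe sets that the platform annotation assigned to 1 gene, out of 11982 genes so represented, and together they had 18 of the 18952 probe sets on the array. The genes Eip74EF and Eip75B had no named probe set in the annotation used here and were not analysed. EcR and Hr3 lie on chromosome arm 2R, usp, br and Hr4 on X, Hr39 on 2L, and Eip78C and ftz-f1 on 3L.

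Ecdysone is the steroid hormone that times moulting and metamorphosis in insects. Its active form binds a heterodimer of EcR and Ultraspiracle (the product of usp), and the bound receptor switches on early genes, whose products in turn control early-late and late genes. The rising hormone titre at the end of larval life starts puparium formation, and in imaginal discs it drives eversion and, in the eye, accompanies the passage of the morphogenetic furrow and photoreceptor differentiation.

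Discs came from wandering larvae of the last instar reared at room temperature, with the antennae removed, and all 4 groups carried the w background that their genotype labels give. In 1 experiment, ro-Gal4 drove UAS-Run in 3 samples (the Runt group) and UAS-Run[G163R], a form of Runt with an amino acid change, in 3 others (the Runt G163R group). In the other, 3 samples were homozygous for the elements the labels name sensDF2RES and sensE1 (the sens mutant group), and 3 were heterozygous for both (the sens control group). The ro-Gal4 driver is active in only part of the developing photoreceptors, so most cells of such a disc are not driven, and no discs without a Run transgene from that experiment were analysed here. The study asked how Runt misexpression, or loss of the transcription factor Senseless, changes gene expression in the context of R7 and R8 photoreceptor targeting. Whether the 3 samples of a group came from separate crosses or animals is not stated, so the p-values rest on a spread that may be technical.

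Values are log2 intensities as deposited. Array medians lay between 2.59 and 2.67, most probe sets sat on a floor under about 3, and differences near this floor are compressed. Correlations over all 18952 probe sets were 0.993 to 0.998 within groups and 0.976 to 0.986 between the experiments. The eye genes eya, dac and gl stood between 11.25 and 12.96 on every array. Of 8 antennal and leg genes, 6 passed a log2 value of 5 on at least 1 array of every group. These include dan and danr, at 9.50 to 11.08 over the arrays, and whether antennal tissue remained was not tested. The sens probe set was higher, not lower, in the samples labelled sens mutant than in their controls, by 1.29 (SE 0.17, limma adjusted p = 0.00112). This goes against a loss of sens transcript, and since the labels do not say whether the elements remove transcript, the probe set does not settle which discs lacked Senseless. Every direction given below for sens mutant minus control rests on the labels. The gene boss, which R8 cells express, was lower in the samples labelled mutant (difference -4.04). The gene run has no named probe set, so the Runt labels could not be checked on it. Differences below come from 1 limma fit over all 12 arrays, a call means a Benjamini-Hochberg adjusted p under 0.05 over 11470 tested probe sets, and all 18 probe sets of the pathway genes passed the filter on low values. In bulk discs, fewer cells of a type and less RNA per cell cannot be told apart.

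EcR, which encodes the hormone-binding partner of the receptor, varied little. It read 7.80, 8.05 and 8.06 in the Runt group and 7.88, 8.13 and 8.13 in the Runt G163R group. In the sens mutants it read 8.03, 7.87 and 7.91, and in their controls 7.92, 8.0 and 8.01. The 4 groups overlapped, and EcR spanned the narrowest range of the 8 brightest probe sets that stand for their genes, 7.80 to 8.13. The difference was -0.08 (SE 0.10, limma adjusted p = 1.00) for Runt minus Runt G163R, -0.04 (SE 0.10, adjusted p = 0.820) for sens mutant minus control, and 0.05 (SE 0.07, adjusted p = 0.618) between the experiments.

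Its partner usp, the RXR-like subunit, varied slightly more. It read 8.63, 8.52 and 8.56 in the Runt group, and 8.71, 8.76 and 8.77 in the Runt G163R group. The sens mutants gave 8.61, 8.71 and 8.82 and their controls 8.22, 8.62 and 8.50. Every Runt array lay under every Runt G163R array, whereas the sens mutant and control arrays touched, with control replicate 2 just above mutant replicate 1. The differences were -0.18 (SE 0.10, limma adjusted p = 0.891) and 0.27 (SE 0.10, adjusted p = 0.0935), and the test of one difference against the other gave -0.45 (SE 0.14, adjusted p = 0.0717). None was called. Over all 4 groups the mean of usp was highest in the Runt G163R group (8.75) and lowest in the sens controls (8.45). Without sens control replicate 2 the sens difference was 0.36 (adjusted p = 0.0447) and the difference between the contrasts was -0.54 (adjusted p = 0.0412).

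**Figure D1:**
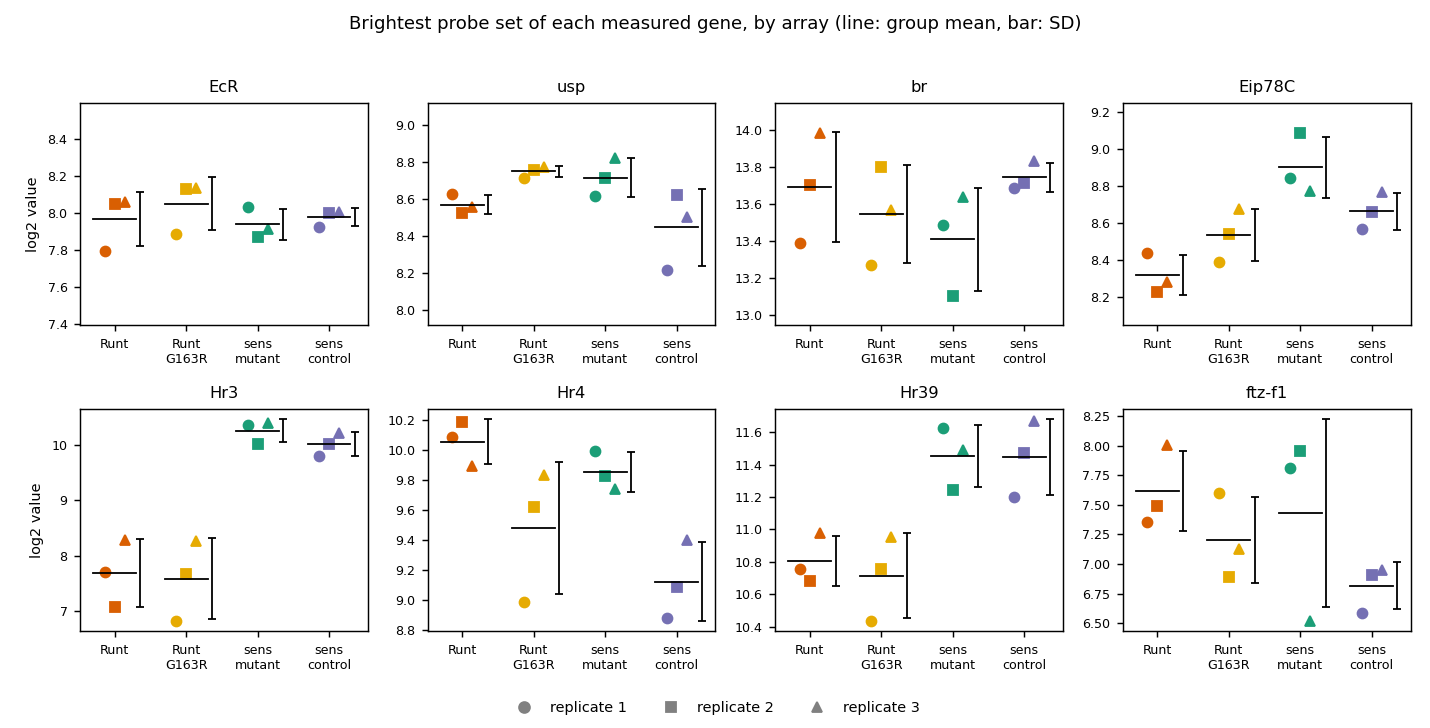
Log2 value of the brightest probe set of each measured gene on each of the 12 arrays, by group, with the group mean (line) and SD (bar, n = 3); symbols mark the replicate number and each panel has its own scale. EcR varies within 7.80 to 8.13, while Hr3 lies between 6.82 and 8.29 in the Runt experiment and between 9.80 and 10.39 in the sens experiment.

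Hr4 was the only one of the 8 genes called in either genetic comparison. Hr4 encodes a nuclear receptor of the early-late class that represses early genes and helps to switch on ftz-f1. Its brightest probe set read 9.998, 9.83 and 9.74 in the sens mutants and 8.88, 9.09 and 9.40 in the controls, with every mutant array above every control array. The difference of 0.73 (SE 0.20, limma adjusted p = 0.0361) passed the threshold. The same probe set read 10.09, 10.19 and 9.89 with Runt and 8.99, 9.62 and 9.83 with Runt G163R. All 3 Runt arrays lay above all 3 Runt G163R arrays there, but the closest values, 9.83 and 9.89, nearly touched, and the difference of 0.57 (SE 0.20) had a limma adjusted p of 0.712. The difference between these contrasts was -0.16 (SE 0.29, adjusted p = 0.740). In the order of mean levels the Runt group (10.06) came first and the sens controls (9.12) last. Antennal, leg and eye genes moved in the same sens comparison, as given with the marker lists below, and their part in the Hr4 difference was not tested.

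A dimmer Hr4 probe set, 1632066_at, was also highest on average in the Runt group and lowest in the sens controls. It read 6.01, 6.01 and 6.68 with Runt against 5.06, 5.19 and 5.06 with Runt G163R, a difference of 1.13 (SE 0.32, limma adjusted p = 0.581). In the sens mutants it read 5.03, 5.13 and 3.88 against 3.65, 3.73 and 4.09, a difference of 0.86 (SE 0.32, adjusted p = 0.0952). Neither was called, and the third mutant array fell among the controls. The remaining Hr4 probe set stayed on the floor, between 2.58 and 2.67. The call of the brightest probe set was lost when Runt replicate 1, any of the sens mutant replicates, or sens control replicate 1 or 2 was left out, and it ranged from 0.52 to 0.87 (adjusted p 0.00837 to 0.121) over 24 alternative settings.

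Across the pathway, 1 of 18 probe sets was called between sens mutants and controls, where 16.9% of all tested probe sets were called in either direction and 11.6% were called higher, so the count is not above the background. In 4 of the 18 the arrays of these groups did not overlap, against 38% of all probe sets. Between Runt and Runt G163R, limma called 0 of 18 (smallest adjusted p 0.581), with 2 under an unadjusted p of 0.05 and 3 not overlapping. In that comparison 0.0436% of all tested probe sets were called, 6.36% were under the unadjusted threshold and 9.44% did not overlap. For the difference between the contrasts limma called 0 of 18, with 2 under an unadjusted p of 0.05, where 10.1% of all probe sets were called and 26.6% passed the unadjusted threshold.

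The prepupal factor ftz-f1, a nuclear receptor that gives tissues the competence to respond to the next hormone pulse, spread most among the sens mutants. Its brighter probe set read 7.81, 7.96 and 6.52 there and 6.59, 6.91 and 6.95 in the controls. Mutant replicates 1 and 2 lay above all controls and replicate 3 below them, and the difference of 0.61 (SE 0.36, limma adjusted p = 0.279) was not called. Without sens mutant replicate 3 it was 1.07 (adjusted p = 0.0272). In the Runt experiment the values were 7.35, 7.49 and 8.0 with Runt and 7.60, 6.89 and 7.13 with Runt G163R, overlapping groups with a difference of 0.41 (SE 0.36, adjusted p = 1.00). Its second probe set stayed between 2.59 and 3.31. Sens mutant replicate 3 was also the lowest of its group for the dimmer Hr4 probe set and for the brightest one.

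Between the experiments, Hr3 had the largest difference of the 8 brightest probe sets. Hr3 encodes an early-late nuclear receptor that represses early genes and activates ftz-f1 at the onset of metamorphosis. It read 7.71, 7.07 and 8.29 with Runt and 6.82, 7.66 and 8.27 with Runt G163R. In the sens mutants it read 10.35, 10.02 and 10.39, and in their controls 9.80, 10.02 and 10.22. All 6 arrays of the Runt experiment lay below all 6 of the sens experiment, while the groups within an experiment overlapped. The mean difference between experiments was -2.50 (SE 0.26, limma adjusted p = 3.3e-05), against 0.11 (SE 0.37, adjusted p = 1.00) for Runt minus Runt G163R and 0.24 (SE 0.37, adjusted p = 0.681) for sens mutant minus control. Each of the 4 pairs of groups across the experiments was called, at -2.32 to -2.67. Of all tested probe sets, 28.8% were called for Runt minus sens mutant, 35.9% for Runt minus sens control, 30.1% for Runt G163R minus sens mutant and 40.2% for Runt G163R minus sens control. Genotype and experiment cannot be told apart in this comparison, because no group was measured in both.

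Hr39, a nuclear receptor related to ftz-f1, was also lower in the Runt experiment. Its brightest probe set read 10.76, 10.68 and 10.98 with Runt and 10.43, 10.76 and 10.96 with Runt G163R. The sens mutants gave 11.62, 11.25 and 11.49 and the controls 11.20, 11.47 and 11.67. The experiments did not overlap and differed by -0.69 (SE 0.11, limma adjusted p = 0.000663). The probe sets 1631402_s_at and 1628556_s_at differed in the same direction, by -1.03 and -0.70, and both were called. The fourth Hr39 probe set ran the other way by 0.71 (adjusted p = 0.00807), but its highest sens array was at 3.20, close to the floor. Neither genetic comparison called any Hr39 probe set.

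Eip78C, a response gene that encodes an orphan nuclear receptor, differed less. It read 8.44, 8.23 and 8.28 with Runt, 8.39, 8.54 and 8.67 with Runt G163R, 8.84, 9.09 and 8.77 in the sens mutants and 8.56, 8.66 and 8.77 in the controls. The mean was lowest in the Runt group and highest in the sens mutants, and neighbouring groups in the order overlapped or touched. The experiments differed by -0.36 (SE 0.08, limma adjusted p = 0.0033). Runt G163R and sens control, which are neighbours in this order, differed by -0.13 (SE 0.11, adjusted p = 0.390), which misses the threshold. The Runt and sens contrasts of Eip78C were -0.22 (adjusted p = 0.840) and 0.24 (adjusted p = 0.165).

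The probe sets of br disagreed with each other. The Broad gene gives several protein isoforms that share an N-terminal domain and differ in their zinc fingers, and in discs it is needed for eversion and for the orderly progress of eye differentiation. The brightest probe set, 1635691_at, held between 13.10 and 13.99 on all 12 arrays and differed by 0.04 (SE 0.13, limma adjusted p = 0.834) between the experiments. Probe set 1637312_a_at was lower in the Runt experiment, at 10.71 to 11.73 against 12.09 to 12.65 in the sens experiment, a difference of -1.30 (SE 0.16, adjusted p = 0.000107). Probe set 1626996_s_at did not pass the threshold, at 0.28 (SE 0.19, adjusted p = 0.281).

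The 2 dimmest br probe sets went the opposite way. Probe set 1629683_at read 10.44 to 10.88 in the Runt experiment and 7.77 to 8.59 in the sens experiment, a difference of 2.48 (SE 0.14, limma adjusted p = 5.67e-07). Probe set 1636931_at read 9.93 to 10.26 in the Runt experiment. It read 6.48, 6.42 and 6.72 in the sens mutants and 3.59, 6.06 and 6.51 in the controls, and differed between the experiments by 4.18 (SE 0.42, adjusted p = 2.51e-05). Its sens difference of 1.15 (SE 0.59, adjusted p = 0.216) rested on control replicate 1, and was 0.25 (adjusted p = 0.374) without that array. Thus 3 probe sets of 1 gene were called between the experiments, 1 down and 2 up, and no single value describes br. The annotation used here does not tie the probe sets to isoforms.

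**Figure D2:**
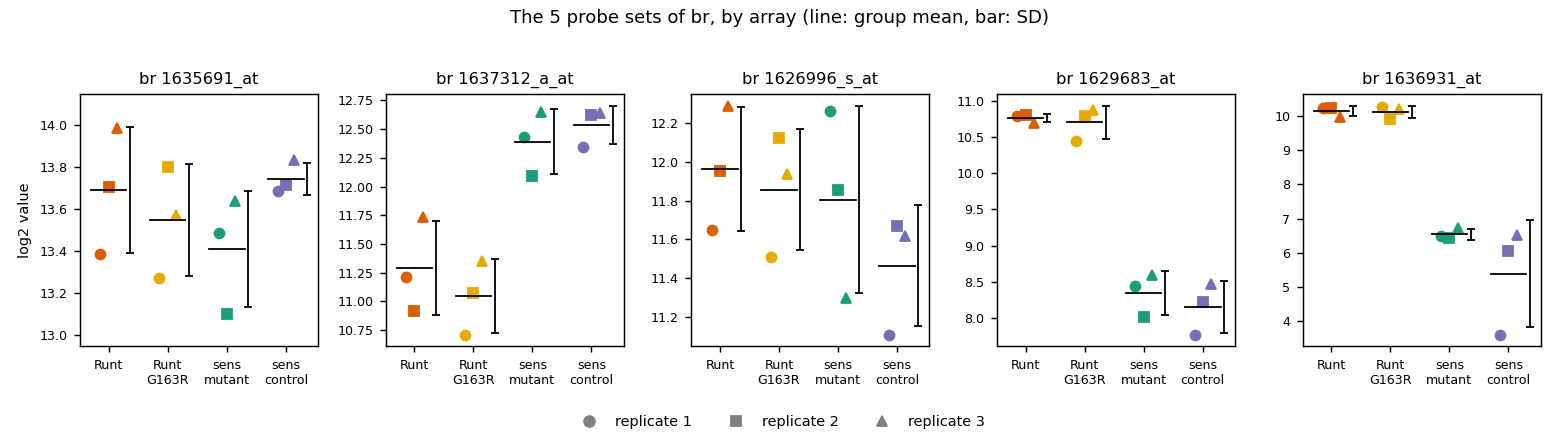
Log2 value of the 5 probe sets of br on each array, by group, with the group mean (line) and SD (bar, n = 3), on a separate scale per panel. Probe set 1637312_a_at is lower in the Runt experiment, 1629683_at and 1636931_at are higher there, and 1635691_at stays between 13.10 and 13.99.

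In all, 11 of the 18 probe sets were called between the experiments, 5 higher and 6 lower in the Runt experiment, against 44.5% of all tested probe sets. The experiments did not overlap in 6 of the 18, against 23.8% of all. With the brightest probe set standing for its gene, 3 of 8 genes were called (Hr3, Hr39 and Eip78C), all lower in the Runt experiment. Of all tested probe sets, 25.5% were called higher there and 18.9% lower. The median difference over the 8 genes was 0.05, against 0.01 over all tested probe sets.

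**Figure D3:**
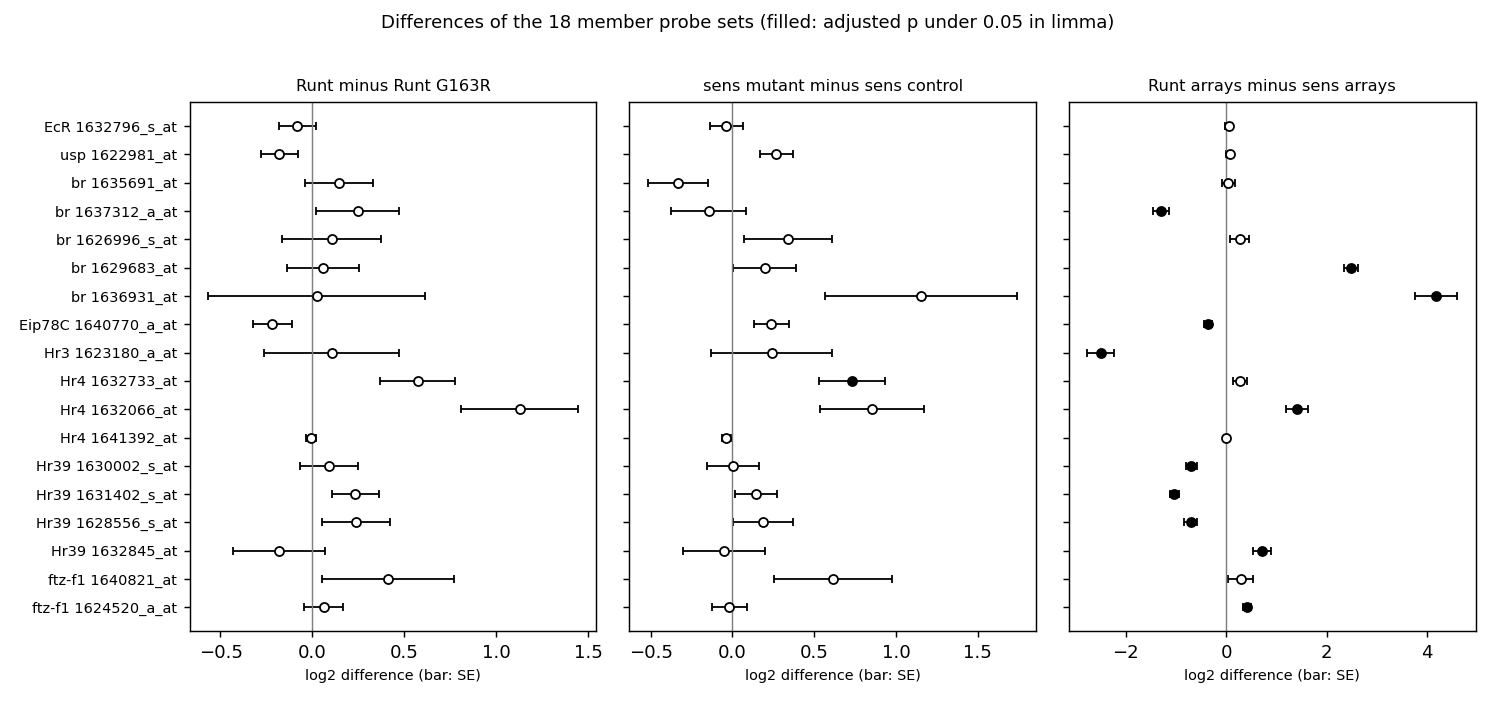
Log2 difference (point) and SE (bar) of each of the 18 probe sets in 3 comparisons, with filled points for limma adjusted p under 0.05. No point is filled for Runt minus Runt G163R, 1 (Hr4 1632733_at) is filled for sens mutant minus control, and 11 are filled between the experiments, on a wider axis.

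Haemocyte markers moved with the difference between the experiments. Of 10 such genes, 9 were higher and 1 (ush) was lower in the Runt experiment, with a median difference of 3.98. The mean log2 value over the list was 7.87 to 8.67 in the Runt group, 8.19 to 8.93 in the Runt G163R group, 3.78 to 4.16 in the sens mutants and 4.17 to 5.16 in the sens controls. On the 6 sens arrays the highest values were 3.25 for Hml, 2.76 for PPO1 and 3.46 for eater, near the floor. The others reached higher there, with 4.67 for PPO2 in sens control replicate 1 and, in sens control replicate 2, 5.64 for NimC1, 5.48 for Pxn, 6.45 for vkg, 6.79 for srp, 6.97 for Col4a1 and 8.63 for ush. Eye genes differed too, with 7 of 10 higher and 1 lower in the Runt experiment. Of 8 antennal and leg genes 2 were higher and 4 lower there, Dll by -2.43. The background for these 3 lists, taken over the whole array, was a share of 25.5% for higher calls and 18.9% for lower ones. Between sens mutants and controls, 3 of the 8 antennal and leg genes were lower, Dll by -1.84, al by -1.02 and ap by -0.83, and none was higher. Of the 10 eye genes 2 were higher there (ey 0.50, toy 0.36) and 3 lower, among them gl at -0.47 and boss. Among all tested probe sets, 16.9% were called between sens mutants and controls and 11.6% were called higher. In limma 0 of the 10 haemocyte genes were called, but 4 (vkg, ush, Col4a1 and NimC1) were lower with an unadjusted p under 0.05. The median difference over the 10 haemocyte genes was -0.48. The part of these cells and tissues in the differences of the ecdysone genes, in both comparisons, was not tested.

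Genes downstream of the receptor were examined in lists of pathway genes. The first held 17 other early and early-late genes, of which 13 had a named probe set and 12 were tested. Between the experiments 6 were lower and 2 higher in the Runt experiment, with a median difference of -0.38, against 18.9% lower and 25.5% higher among all tested probe sets. Eip93F, which directs the later response to the hormone, differed by -2.55 (SE 0.33, limma adjusted p = 0.000135), and Blimp-1, a repressor that times ftz-f1 expression, by -2.10 (SE 0.12). The transcription factor gene vri differed by -1.47 (SE 0.11) and E23, which encodes an ABC transporter that dampens the hormone response, by -1.45 (SE 0.24). Sox14 and the caspase gene Dronc were lower by smaller steps, at -0.52 and -0.38. The kinase gene Eip63E was higher by 2.15, and Cth by 0.29. These genes are named here because they were called, and were chosen after their values were seen.

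The Eip63E value came from 1 group. It read 10.82 to 11.07 in the 6 arrays of the Runt experiment and 11.18, 11.40 and 11.33 in the sens mutants, but 6.47, 6.26 and 6.26 in the sens controls. Blimp-1 separated 3 levels. It read 8.19 to 8.99 in the Runt experiment, 9.80, 10.33 and 10.30 in the sens controls, and 11.42, 11.47 and 11.12 in the sens mutants.

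In the sens comparison, 5 of the 12 genes of this list rose in the mutants and 1 fell, where 16.9% of all tested probe sets were called and 11.6% were higher. The median difference was 0.17, against 0.03 over all tested probe sets. The antennal, leg and eye genes given above moved in the same comparison. The 2 groups differ in copies of the sens elements, and the part of sequence linked to those elements in these calls was not tested. Eip63E rose by 4.97 (SE 0.09, limma adjusted p = 3.11e-10), Blimp-1 by 1.19 (SE 0.17, adjusted p = 0.00175) and MsrA, which encodes a methionine sulfoxide reductase, by 1.13 (SE 0.12, adjusted p = 0.0003). Dronc rose by 0.66 (SE 0.13, adjusted p = 0.00784), and Sox14 was the fifth to rise. The gene that fell was chinmo, a temporal identity factor, with means of 4.79 ± 0.15 (SD, n = 3) in the mutants and 6.03 ± 0.68 (SD, n = 3) in the controls. Between Runt and Runt G163R none of the 12 was called (1 had an unadjusted p under 0.05), and limma called no gene of any other list in that comparison. With array weights rig, a receptor cofactor gene, and Fdx2, of the hormone synthesis list, were called there.

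The second list held 22 late genes, made up of genes of cuticle and disc eversion and of the Eig71E genes. Of the 22, 19 had a named probe set and 12 were tested. The tissue from which the Eig71E transcripts came was not tested. Between the experiments, 9 of the 12 were lower in the Runt experiment and none was higher, with a median difference of -0.96, against 44.5% called and 18.9% called lower among all tested probe sets. ImpL1, a gene that ecdysone induces in discs, read 5.93 to 9.68 in the Runt experiment and 13.29 to 13.75 in the sens experiment, a difference of -5.71 (SE 0.66, limma adjusted p = 6.94e-05). The protease gene Sb, which is needed for disc eversion, read 5.74 to 7.42 against 9.51 to 10.35, a difference of -3.39 (SE 0.28). The other disc genes induced by the hormone were closer, with ImpE1 at -0.85, ImpE3 at -0.86, ImpL2 at -0.52 and ImpE2 at -0.18. The calls of Eig71Ea and Eig71Ed were each lost under 13 of 22 alternative settings. On the Runt arrays Eig71Ea lay at 2.40 to 2.42 and Eig71Ed at 2.42 to 3.25, on or near the floor. High values on single sens arrays set their direction, so these 2 calls add little to the count of 9.

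Ddc, which encodes the dopa decarboxylase that makes precursors for cuticle tanning, differed both between and within experiments. It read 4.12 to 4.65 in the Runt experiment, 6.93, 6.95 and 6.40 in the sens mutants, and 9.76, 9.52 and 9.23 in the sens controls. Its difference between the experiments was -3.70 (SE 0.14, limma adjusted p = 5.75e-08). In the sens mutants it fell by 2.74 (SE 0.20, adjusted p = 3.11e-05) relative to the controls, the only call in this list for that comparison.

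Genes that make, import or destroy the hormone formed the third list, with 20 genes named and 16 tested. Between the experiments 2 were higher and 4 lower in the Runt experiment, a share of 16 that is not above the 44.5% called among all tested probe sets, and none was called in either genetic comparison. The 2 higher were ecd and Eo, whose calls were lost under 13 of 22 and 10 of 21 alternative settings. On the sens arrays Eo lay on the floor, at 2.24 to 2.32. Cyp18a1, the cytochrome P450 that inactivates ecdysteroids and is itself induced by them, read 4.66 to 6.11 in the Runt experiment and 7.50 to 9.86 in the sens experiment, a difference of -3.65 (SE 0.36, limma adjusted p = 2.2e-05). The ecdysone importer gene Oatp74D read 10.21 to 10.81 against 11.40 to 11.70, a difference of -0.99 (SE 0.12). Of the ring gland enzymes, sad was lower on average in the Runt experiment, at -1.98 (SE 0.52, limma adjusted p = 0.0111). The experiments overlapped in sad, at 4.14 to 6.98 against 5.74 to 8.46. Values of spok varied between single arrays. The gene spok read 9.79, 7.81 and 6.09 with Runt and 6.25, 5.72 and 7.49 with Runt G163R, and in the sens experiment 2.67, 8.38 and 7.26 in the mutants and 8.34, 2.92 and 6.98 in the controls. The 4 groups overlapped in spok. On Runt replicate 1, the array with the highest spok, the enzyme genes phtm (7.31) and nvd (5.93) also had their highest values. Whether ring gland tissue was carried over with the discs was not tested.

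**Figure D4:**
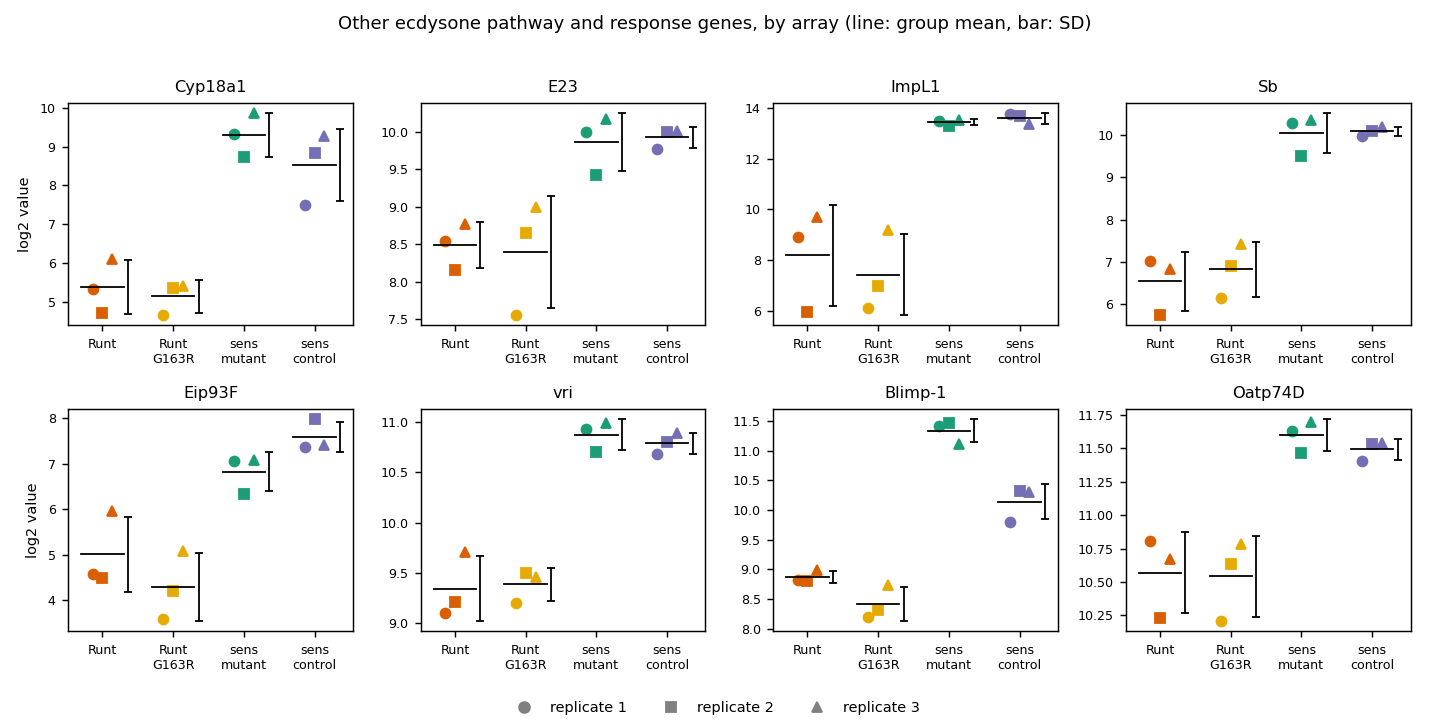
Log2 value of 8 other ecdysone pathway and response genes on each array, by group, with the group mean (line) and SD (bar, n = 3), on a separate scale per panel. In all 8 the 6 arrays of the Runt experiment lie below the 6 of the sens experiment, by the widest gap for ImpL1. Blimp-1 also separates sens mutants from controls. The 8 genes were picked with their values in view. Other genes of the same lists overlapped between the experiments (among them Kr-h1, Npc1a and spok) or were called higher in the Runt experiment (among them Eip63E and Cth).

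Of 16 tested receptor cofactors and chromatin partners, 6 were higher and 2 lower in the Runt experiment, with a median difference of 0.09 and a share near the 44.5% called among all tested probe sets, and none was called in the sens comparison. With the median of kept probe sets subtracted from each array, 5 of these 8 calls were lost. The largest of them was Fkbp39, at 0.53 (SE 0.05, limma adjusted p = 2.3e-05). Of 10 tested other nuclear receptor genes, 1 was higher (svp, 0.70) and 4 lower, among them Hnf4 at -0.71 and knrl at -1.29, also a share near that background. Of these, knrl was the only one called between sens mutants and controls, where it fell by 1.10 (adjusted p = 0.0387), a call lost under 12 of 24 alternative settings. Of 4 tested juvenile hormone genes, Jheh2, an epoxide hydrolase gene, differed by 0.81 and JhI-21 by -0.42 between the experiments, and both were called.

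Single arrays also differed within groups in salivary gland glue genes and fat body genes. Both are expressed in the third larval instar and neither belongs to an eye disc, so carried-over tissue and stage cannot be told apart in them. Sgs8 read 6.58 in Runt replicate 3, 6.31 in Runt G163R replicate 2, and 9.34 and 8.29 in sens mutant replicates 2 and 3, but 2.34 to 3.49 on the other 8 arrays. Lsp2, a larval storage protein gene of the fat body, was at 13.07 in sens control replicate 1, 10.48 in sens mutant replicate 2 and 9.71 in Runt G163R replicate 2, and at 8.82 or under elsewhere. Sens mutant replicate 2 and Runt G163R replicate 2 were thus high in both genes, while sens control replicate 1 had the highest Lsp2 but Sgs8 at 2.63. Eig71Ea, a late ecdysone response gene, was at 12.92, 11.51 and 10.72 in sens mutant replicates 2 and 3 and sens control replicate 1, at 5.67 in control replicate 2, and between 2.40 and 2.46 on the other 8 arrays.

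A late-stage index was set for each array as the mean log2 value of 8 glue and fat body genes, taken as a deviation from its group. It ran from -1.66 in sens mutant replicate 1 to 2.45 in sens mutant replicate 2. Its fat body and glue parts did not always go together. Sens control replicate 1 was at 3.87 for fat body and -0.11 for glue, and sens mutant replicate 3 at -2.72 and 0.36. Carried-over tissue and a later stage cannot be told apart in the index, so a slope on it is no test of stage alone. No probe set of the pathway genes was called for a slope on this index in limma (smallest p 0.103, every adjusted p = 1.00), and none of the 18 passed an unadjusted p of 0.05. Over all tested probe sets 0% were called and 4% passed the unadjusted threshold. The glue and fat body genes that make up the index were not called on it either (limma unadjusted p = 0.000226 for Sgs4 and 0.000377 for Lsp2). The absence of a call for the pathway genes therefore says little. For Hr3 the slope was 0.03 log2 per unit of the index (SE 0.10), and for EcR it was 0.00 (SE 0.03). With the index built from glue genes alone, fat body genes alone or late ecdysone response genes, 2, 7 and 11 probe sets were called over the whole array, and none belonged to the 8 genes.

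Hr3 was also set against single genes array by array. Within the Runt experiment, the highest Hr3 arrays, Runt replicate 3 (8.29) and Runt G163R replicate 3 (8.27), had the highest ImpL1 (9.68 and 9.19), and the lowest Hr3 arrays, Runt G163R replicate 1 (6.82) and Runt replicate 2 (7.07), had the lowest (6.10 and 5.93). Over those 6 arrays, Pearson's r of Hr3 was 0.92 with ImpL1, 0.94 with E23, 0.91 with Cyp18a1, 0.87 with ImpE1, 0.85 with Eip93F, 0.84 with Sb, 0.70 with vri and 0.59 with Blimp-1. It was 0.55 with the glue gene Sgs3, 0.31 with Fbp1, a fat body gene, and 0.01 with spok. With the late response gene Eig71Ea, on the floor on these arrays, it was 0.03. Over the 6 sens arrays r was 0.96 with vri, 0.94 with Cyp18a1, 0.65 with Sb, 0.63 with E23, 0.61 with Blimp-1, 0.19 with Sgs3 and 0.15 with ImpE1. It was -0.13 with Eip93F, -0.34 with spok, -0.38 with Eig71Ea, -0.46 with ImpL1 and -0.88 with Fbp1 there, and Hr3 spanned only 9.80 to 10.39. These r values describe 6 arrays each, whose points share the normalization and come from 2 groups. For ImpL1, Eip93F, Eig71Ea, Fbp1 and spok the sign of r differed between the experiments.

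**Figure D5:**
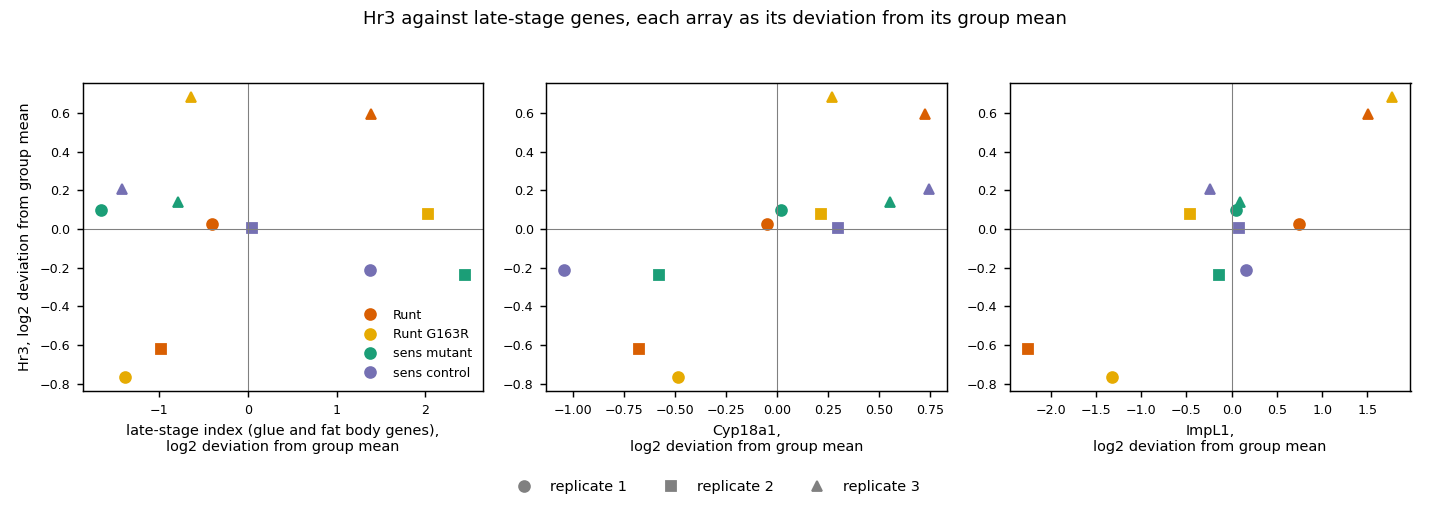
Hr3 on each array as its deviation from the group mean (vertical axis, log2) against the same deviation of the late-stage index, Cyp18a1 and ImpL1 (horizontal axes, log2); colours mark the group and symbols the replicate. The Runt and Runt G163R arrays spread along both axes for ImpL1, where the sens arrays bunch near 0. No slope on the late-stage index was called for any tested probe set, the genes of the index included.

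For the 3 genes with the largest SD over the 12 arrays (Hr3, ftz-f1 and Hr4), the genes with the most similar pattern were sought by Pearson's r. For Hr3 (SD 1.37) they were CG43366 (r = 0.996), Pgant9 (r = 0.995) and CG13082 (r = 0.992), each lower in the Runt experiment, with means of 10.01, 9.84 and 7.92 against 11.57, 11.07 and 10.81. As deviations from group means their r with Hr3 was 0.96, 0.96 and 0.93. For Hr4 they were CG17883 (r = 0.90), CG13124 (r = 0.88) and Ace (r = 0.88), and within groups 0.74, 0.92 and 0.88. For ftz-f1 they were pic (r = 0.84), Mrtf (r = 0.83) and CG8097 (r = 0.82), with 0.78, 0.72 and 0.79 within groups. All are descriptions over 12 arrays from the same 4 groups, picked as the highest of 8224 genes.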

How the data were processed

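Total RNA of 12 eye disc samples was hybridised to 1 array each after Trizol extraction and biotin labelling, per the labels' protocols. The values deposited by the authors are on a log2 scale, judged from their range of 1.63 to 15.4. The submitters' processing notes name GCRMA, MAS5 and affy without saying what each did, and how the background was corrected and the arrays normalized is not given in the sources used here. No depth exists for arrays, and precision is limited by 3 arrays per group.

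The platform annotation gave 13647 probe sets 1 gene and 402 several, and no gene was named from the latter. Symbols, synonyms and chromosome arms came from a RefSeq table. The 183 controls were left out. A probe set entered the fit (11470 did) when it exceeded the 40th percentile of an array on 3 or more of 12 arrays. Group means were fitted to all 12 arrays with limma 3.58.1 (lmFit, eBayes with an intensity trend) in R 4.3.3, after a test on simulated data. Tests were two-sided, with Benjamini-Hochberg adjustment over all kept probe sets. Genes and lists were chosen with earlier results of these data known. The brightest probe set over 12 arrays stands for a gene. Named genes were the 10 pathway genes, up to 4 genes per list with the smallest p in the Runt contrast, the sens contrast and the stage slope, 3 similar genes for each of the 3 most variable members, and sens and boss. Any further gene was picked with its values in view. The lists of glue, fat body, eye, antennal and leg, haemocyte, and peripodial and tracheal genes served as markers. Of the last list only bnl was tested, and it was called in neither genetic comparison nor between the experiments. Alternatives changed the filter, scaling, variance model, array weights, replicate block, probe set summary, arrays used, index and its use as a covariate.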

Additional observations from a re-analysis of the deposited data

Results flagged for a closer look

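The Runt contrast and the sens contrast differed in the limma test of the difference itself (adjusted p under 0.05 over all tested probe sets) for 12 genes of the pathway and marker lists and the label check, among 1157 probe sets called over the whole array. The values are the Runt contrast minus the sens contrast, on the log2 scale. Eip63E, a kinase gene of the early response, gave -4.91, and Dronc, an initiator caspase gene, gave -0.86. MsrA gave -1.26 and Sox14 gave -0.61. Ddc, the dopa decarboxylase gene, gave 2.99. Jheh2, an epoxide hydrolase gene, gave -0.47. Of the antennal and leg genes, Dll gave 1.68, al gave 1.01 and ap gave 0.83. The eye gene toy gave -0.34. The genes used to check the labels gave -1.26 for sens and 4.68 for boss. The calls of Sox14, Dll, ap and toy were lost under 14 of 22, 9 of 22, 14 of 21 and 15 of 22 alternative settings. None of the 18 probe sets of EcR, usp and the 6 measured response regulators was among them.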

How the results depend on the processing

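No result changed sign after being called, and 209 uncalled differences of the 8 genes and lists changed sign. Hr3, Hr39 and Eip78C stayed called between the experiments under every alternative run, at -2.31 to -2.67, -0.43 to -0.77 and -0.31 to -0.44. The count of genes called between sens mutants and controls was 1, and it was 0 with no filter on low values, with a second quantile normalization and with the replicate block (Hr4 adjusted p 0.0605, 0.0604 and 0.0521). It was 2 with the median of kept probe sets subtracted, a setting chosen after seeing the data, where br (1635691_at) was called at -0.50 (adjusted p = 0.0479) beside Hr4. Leaving out each array in turn gave 0 to 1, and without sens mutant replicate 3 or sens control replicate 2 the gene called was ftz-f1 or usp and not Hr4. The count for the difference between the contrasts was 0, but 2 with array weights (usp -0.34, Eip78C -0.45) and 0 to 1 with each array left out. Between the experiments it was 3, and 5 with the mean of all probe sets of a gene, where br and Hr4 joined. Hr4 was called between the experiments under 3 of 22 alternative settings, that one among them. The count for Runt minus Runt G163R and for the late-stage slope was 0 under every alternative run. Subtracting the median of kept probe sets moved the median sens difference of all probe sets from 0.03 to -0.14, and the share of sens calls that were higher from 68.7% to 29.7% (50.1% with the second quantile normalization, 77.3% with the array median subtracted). The probe sets called for Runt minus Runt G163R over the whole array numbered 5, but 119 without Runt replicate 3 and 466 with array weights. Same-numbered samples did not deviate together, with r from -0.42 to 0.26, so replicate numbers were not taken as pairs.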
